A study of Mus musculus with 6 samples.

Results

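The DNA replication and S-phase genes are 43 genes whose products license and fire origins, copy DNA, supply nucleotides and drive entry into S phase. They were taken by name from a list, using probe sets annotated to exactly 1 gene symbol and, for a gene with several of them, the brightest one by its average across the 6 arrays. All 43 were measured, among 19936 genes in all. RNA was taken from 3 lines of mouse endothelial cells that originate in embryonic stem cells, and each line has 2 arrays. The lines are labelled by the cadherin they express: N-cadherin (N), VE-cadherin (VE), or VE- and N-cadherin together (VE+N). Every line was seeded at 50000 cells per square centimetre in medium with 20% serum, cultured for 72 h in long confluence and then kept without serum, with 1% albumin, for 18 to 20 h. No array of growing, sparse or serum-fed cells was analysed here. Whether a line is 1 clone, and how its cadherins were introduced, is not given in the sources used here.

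Before a cell copies its DNA, the origin recognition complex, Cdc6 and Cdt1 load the MCM helicase onto origins. The kinase Cdc7 and cyclin E kinases then turn the loaded helicase, with Cdc45 and the GINS complex, into an active fork, where primase, the polymerases and the sliding clamp make new strands. Many of these genes are transcribed under E2F factors as cells pass from G1 into S phase. Endothelial cells in a confluent layer divide little, and VE-cadherin is known for its part in this contact inhibition.

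The values are log2 signals, so a difference of 1 is a 2-fold change, and the medians of the 6 arrays ran from 4.85 to 4.91. The number of arrays limits the precision. The titles speak of biological replicates and the series text of separate RNA extractions; p-values therefore measure the spread between these extracts, which may be technical, and a difference tied to the cadherins cannot be told apart from any other difference between the lines. The N-cadherin gene Cdh2 read 7.66 and 7.67 in the N-labelled, 5.80 and 5.93 in the VE-labelled and 6.69 and 6.70 in the VE+N-labelled line. The VE-cadherin gene Cdh5 read 7.26 and 7.30, 7.05 and 6.83, and 7.05 and 7.16 in the same order, which goes against the labels, so every direction below is between lines as labelled. Of 14 endothelial markers 13 lay above the median gene on both arrays of each line, Sox17 being the exception. Of 7 embryonic stem cell and 6 leukocyte markers 0 did. Of 7 mural cell markers 2 did in the N-labelled and VE-labelled lines and 0 in the VE+N-labelled line; the log2 of their summed signal was 9.59 to 9.65, 8.89 to 9.23 and 7.16 to 7.24, and the part of this in the results was not tested. Array signals have no true zero, and no marker can be called absent from them.

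Most replication genes were highest in the VE-labelled line, and most did not pass the test between the VE+N-labelled and N-labelled lines. In limma with Benjamini-Hochberg adjustment over all genes, 30 of 43 members were higher in VE-labelled than in N-labelled cells at adjusted p below 0.05, against 8.46% of all genes, and 1 was lower, against 6.99% (15.4% either way). The median difference over the members was 0.62 log2 units (0.51 with each array centred on its median), and over all genes it was −0.021. In the VE+N-labelled line 32 of 43 members were lower than in the VE-labelled line, against 5.84% of all genes (10.1% either way), with a member median of −0.825 and a median of 0.029 over all genes. None was higher there in limma, where 4.29% of all genes were, and none was higher at an unadjusted p under 0.05 or in the methods' analysis of variance. Between the VE+N-labelled and N-labelled lines 12 of 43 members passed, against 19.1% of all genes either way. Of these, 9 were lower (20.9% of members, against 8.91% of all genes). The other 3 were higher (6.98% of members, against 10.2%). The difference was below 0 in 35 of 43 members and in 10149 of 19936 genes. The member median was −0.227, and −0.004 over all genes. The comparisons share arrays, so their counts are not independent. In these bulk samples, fewer cells in S phase and less of each RNA per cell cannot be told apart.

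**Figure D1:**
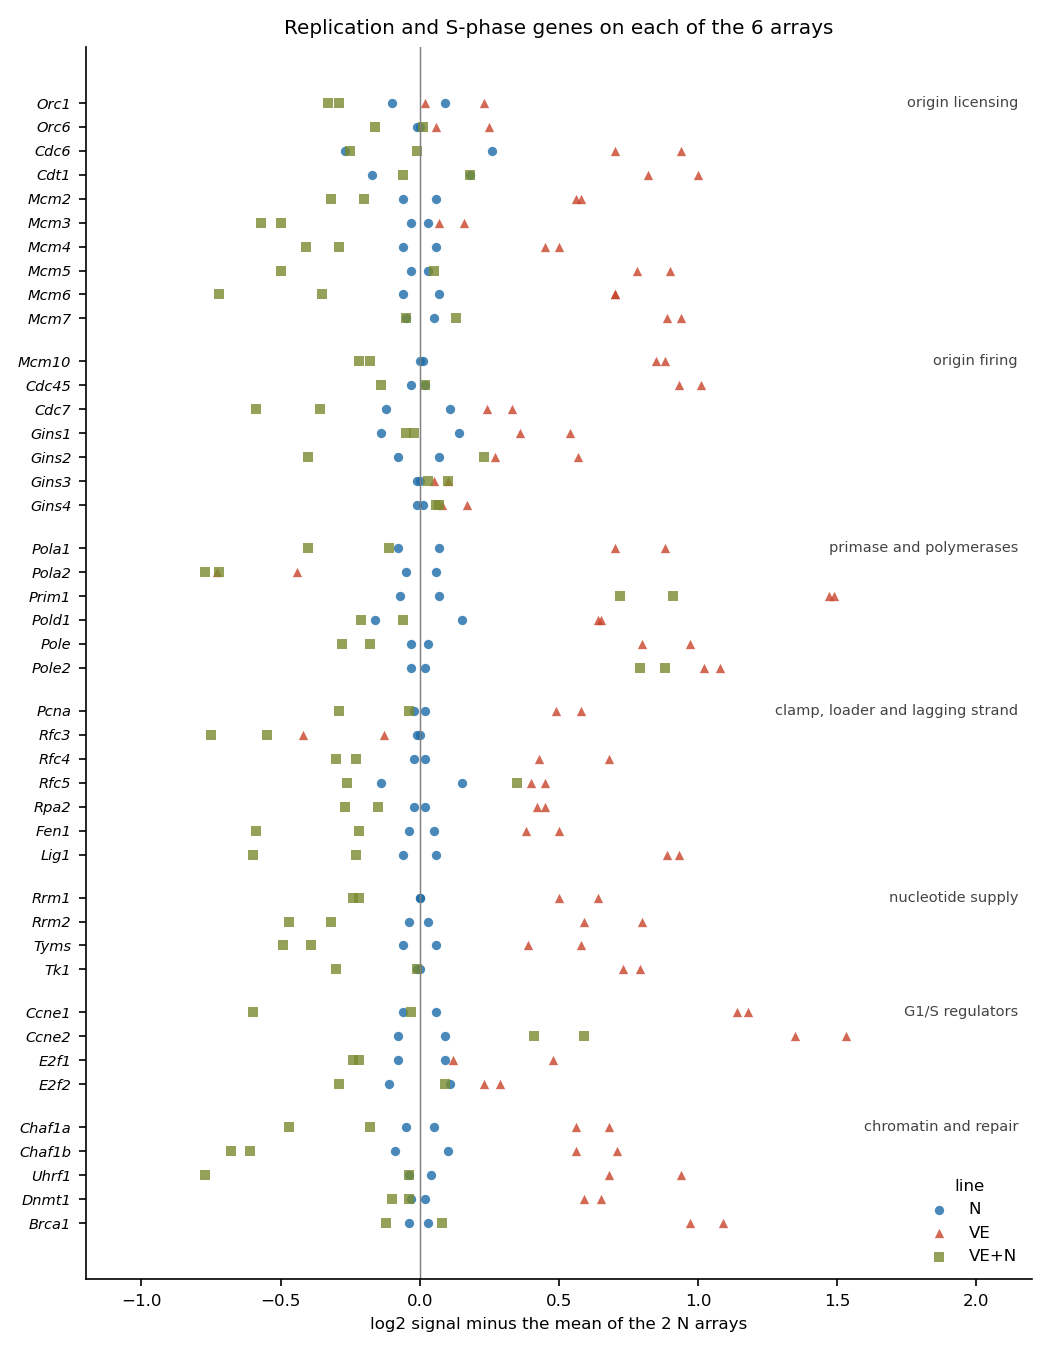
Log2 signal of each of the 43 members on each array, minus the mean of the 2 N-labelled arrays; 1 point is 1 array, circles N-labelled, triangles VE-labelled, squares VE+N-labelled, with members grouped by role. Both triangles lie to the right of the other 4 points for 39 members, while the squares lie near or to the left of the circles except for a few genes such as Prim1, Pole2 and Ccne2.

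The arrays of a line kept together for most members. In 39 of the 43, both VE-labelled arrays read above all 4 other arrays, a pattern that 9.54% of all genes showed. Both VE-labelled arrays read above both N-labelled arrays in 40, against 26.0%. The 4 without the first pattern were Orc1, Gins3, Pola2 and Rfc3. The member median, set against the mean of the N-labelled arrays, was 0.578 and 0.644 on the VE-labelled arrays and −0.114 and −0.286 on the VE+N-labelled arrays, beside values between −0.024 and 0.012 over all genes on those 4. The second VE+N-labelled array read below the first in 32 of 43 members, against 50.4% of all genes, by a median of 0.127. The counts move with single arrays. Without the N-labelled replicate 2, VE-labelled replicate 1 or VE-labelled replicate 2, the 30 members higher in the VE-labelled line became 17, 17 and 14, while the share over all genes was 5.32%, 5.11% and 5.31%.

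**Figure D2:**
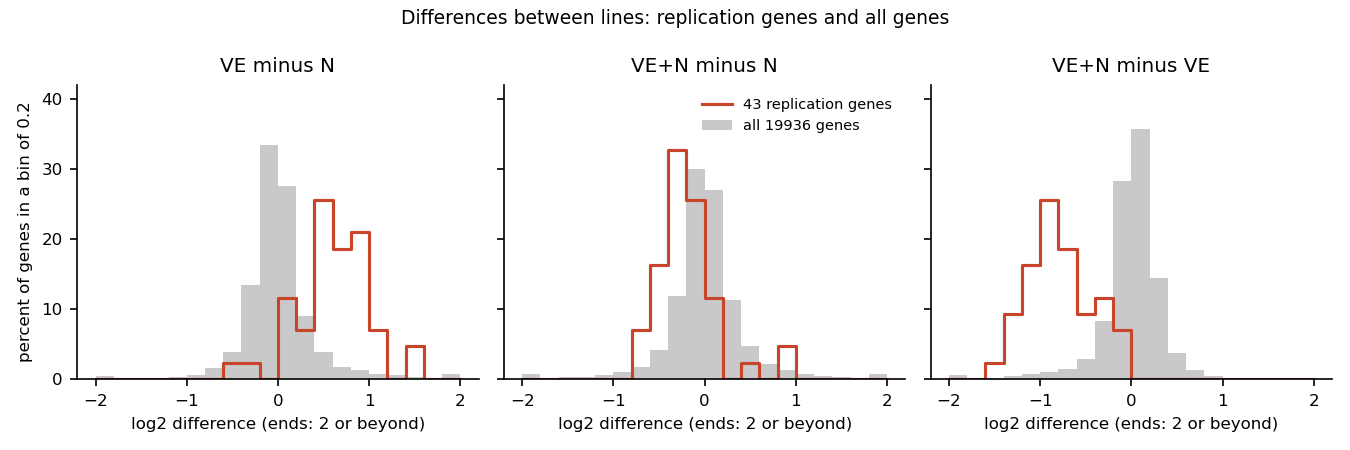
Share of genes (percent, vertical axis) in bins of 0.2 log2 units of the difference between lines (horizontal axis), for all 19936 genes (grey bars) and the 43 members (red line); differences beyond 2 are in the end bins. The members' median lies at 0.62, −0.227 and −0.825 in the left, middle and right panel, while all genes centre near 0.

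Among the 10 members that license origins, 7 rose in the VE-labelled line over the N-labelled line, against 8.46% of all genes. The differences lay between 0.11 and 0.92 over the 10. In the VE+N-labelled line 8 were lower than in the VE-labelled line, against 5.84%. The helicase subunit Mcm6 read 7.76 and 7.63 in the N-labelled, 8.39 and 8.39 in the VE-labelled and 7.34 and 6.97 in the VE+N-labelled line. The 3 lines did not overlap. The VE minus N difference was 0.70 ± 0.136 (SE; adjusted p = 0.0104 in limma), VE+N minus N was −0.53 (adjusted p = 0.0283) and VE+N minus VE was −1.23 (adjusted p = 0.00103). Mcm5 read 7.46 and 7.40, then 8.33 and 8.21, then 7.48 and 6.93 in the N-, VE- and VE+N-labelled lines. Its VE+N-labelled arrays lay 0.55 apart, 1 at the level of the N-labelled arrays and 1 below it, and only its differences from the VE-labelled line passed, at 0.84 above the N-labelled line (adjusted p = 0.0128) and −1.07 when VE+N was set against VE (adjusted p = 0.00614).

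For the 6 subunits of the Mcm2 to Mcm7 ring, the VE minus N differences ran from 0.11 to 0.92. Mcm7 rose by 0.92 ± 0.107 (adjusted p = 0.000837), Mcm2 by 0.57 ± 0.104 and Mcm4 by 0.47 ± 0.103. Mcm3 read 8.30 and 8.24 in the N-labelled, 8.43 and 8.34 in the VE-labelled and 7.77 and 7.70 in the VE+N-labelled line. Its VE minus N difference of 0.11 did not pass (95% interval −0.12 to 0.34), an interval that lies below that of Mcm7 (0.67 to 1.16). These are the smallest and largest differences of the 6, and no test between genes was run. Mcm3 was lower in the VE+N-labelled line than in the N-labelled line by −0.54 ± 0.0992 (adjusted p = 0.00675 in limma). All 6 subunits were lower in the VE+N-labelled than in the VE-labelled line, by −0.65 to −1.23.

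The loading factors followed the same course in part. Cdt1, which brings the helicase to origins, rose by 0.91 ± 0.149 in the VE-labelled over the N-labelled line (adjusted p = 0.00477) and Cdc6, the loader's ATPase, by 0.83 ± 0.182 (adjusted p = 0.0188). Orc1 and Orc6, the origin recognition subunits among the members, passed in no comparison. Orc5, no member of the list and named after its values were seen, did pass for VE minus N (−0.75, adjusted p = 0.00409 in limma). It also passed for VE+N minus N (−0.56, adjusted p = 0.0132). Orc2, Orc3 and Orc4, likewise no members, passed in no comparison, with VE minus N differences of 0.09, 0.01 and −0.27. Orc1 read 4.97 and 4.78, 5.11 and 4.9, and 4.59 and 4.55 in the N-, VE- and VE+N-labelled lines, so that both VE+N-labelled arrays lay below the others while the N- and VE-labelled arrays overlapped. Orc6 read 7.40 and 7.39, 7.65 and 7.46, and 7.41 and 7.24, and its VE minus N difference was 0.16 (95% interval −0.10 to 0.42).

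Because these genes moved together, the letters of their promoters were read from RefSeq's table on build GRCm38.p6, which held 37 of the 43 members with 46 start sites. The E2F letters TTTGGCGC, TTTCCCGC, TTTGCCGC or TTTCGCGC, on either strand within 250 bases before the start, were found in 10 of the 46 member promoters (21.7%) and in 1.86% of all 32851 promoters. The CCAAT letters were in 56.5% against 33.8%, the GC box GGGCGG in 60.9% against 32.7%, and the CHR letters TTTGAA in 15.2% against 16.0%. None of the 13 E2F matches overlapped a GC box. The 10 genes with a match had a median VE minus N difference of 0.745 and the 27 without one a median of 0.57, a description of a few genes with wide overlap (−0.27 to 0.92 and −0.59 to 1.48). A match is a run of letters and not evidence of binding.

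The 200 bases before the start are shown for 5 members with matches, the E2F letters in capitals, 5′ to 3′ on the strand of the gene. Mcm6 (chr1:128359706-128359905, minus strand) and Mcm5 (chr8:75109309-75109508, plus strand) carry 3 and 2 matches in this stretch, some overlapping, Cdc6 (chr11:98907951-98908150, plus strand) carries 1, and all of them were higher in the VE-labelled line. Gins3 (chr8:95633359-95633558, plus strand) and Rfc3 (chr5:151651209-151651408, minus strand) also carry 1 match each but did not pass in VE minus N. They are set together because genes with the same letters stood on either side of the threshold.
Mcm6: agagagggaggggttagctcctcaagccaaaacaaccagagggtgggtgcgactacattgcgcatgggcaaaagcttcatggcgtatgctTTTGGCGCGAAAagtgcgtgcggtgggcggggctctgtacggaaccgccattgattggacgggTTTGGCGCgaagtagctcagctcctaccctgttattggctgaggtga
Mcm5: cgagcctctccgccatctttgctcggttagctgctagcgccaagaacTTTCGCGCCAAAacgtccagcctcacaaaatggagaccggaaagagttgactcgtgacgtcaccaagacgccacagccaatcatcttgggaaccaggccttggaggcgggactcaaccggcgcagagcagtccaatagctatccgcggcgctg
Cdc6: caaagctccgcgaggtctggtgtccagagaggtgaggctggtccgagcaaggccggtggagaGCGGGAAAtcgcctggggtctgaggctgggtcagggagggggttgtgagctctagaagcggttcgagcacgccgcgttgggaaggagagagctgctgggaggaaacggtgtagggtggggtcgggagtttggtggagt
Gins3: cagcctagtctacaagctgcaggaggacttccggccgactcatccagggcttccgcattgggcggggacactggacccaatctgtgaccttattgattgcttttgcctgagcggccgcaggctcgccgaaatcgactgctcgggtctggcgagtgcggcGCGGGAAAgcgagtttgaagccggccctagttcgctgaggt
Rfc3: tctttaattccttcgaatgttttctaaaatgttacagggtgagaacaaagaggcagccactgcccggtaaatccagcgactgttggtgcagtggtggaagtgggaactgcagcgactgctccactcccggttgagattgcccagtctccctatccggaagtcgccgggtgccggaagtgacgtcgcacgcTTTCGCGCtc

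Of the 7 members that fire origins, 3 rose in the VE-labelled over the N-labelled line, against 8.46% of all genes. Cdc45, which joins the MCM ring in the working helicase, read 6.96 and 7.01 in the N-labelled, 8.0 and 7.92 in the VE-labelled and 7.01 and 6.85 in the VE+N-labelled line. The N- and VE+N-labelled arrays overlapped and the VE-labelled arrays lay apart, with a VE minus N difference of 0.98 ± 0.105 (adjusted p = 0.00054) and a VE+N minus VE difference of −1.03 (adjusted p = 0.000704). Mcm10, which helps to activate the helicase, read 6.07 and 6.06, 6.91 and 6.94, and 5.88 and 5.84 in the same order. The pairs were narrow and no lines overlapped, with differences of 0.86 ± 0.0939 for VE minus N (adjusted p = 0.000584) and −1.06 for VE+N minus VE (adjusted p = 0.000354), while the VE+N minus N difference of −0.20 did not pass (adjusted p = 0.197).

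The origin-firing kinase and the GINS subunits behaved less alike. Cdc7 read 4.94 and 5.17 in the N-labelled, 5.30 and 5.39 in the VE-labelled and 4.47 and 4.70 in the VE+N-labelled line. The 3 lines did not overlap, yet VE minus N, at 0.29, did not pass (adjusted p = 0.192). VE+N minus N passed at −0.47 ± 0.125 (adjusted p = 0.0335). Dbf4, the subunit that activates Cdc7 and no member of the list, was named after its values were seen: it read 7.87 and 7.87, 7.77 and 7.77, and 6.84 and 6.71 in the same order. It was thus lower in the VE+N-labelled line, by −1.1 ± 0.0992 from the N-labelled line (adjusted p = 0.000168). Among the GINS subunits, which hold Cdc45 to the ring, Gins1 rose by 0.45 ± 0.127 in the VE-labelled over the N-labelled line (adjusted p = 0.0486), close to the threshold. Gins2 read 6.45 and 6.6, 7.10 and 6.80, and 6.76 and 6.13, with VE+N-labelled arrays on either side of the N-labelled ones, and passed in no comparison. Gins3 read 6.15 and 6.16, 6.21 and 6.26, and 6.26 and 6.19, and Gins4 8.07 and 8.05, 8.14 and 8.23, and 8.13 and 8.12. Neither passed, and the 95% intervals of their VE minus N differences ran from −0.14 to 0.30 and from −0.09 to 0.35, below the interval of Cdc45 (0.73 to 1.22).

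The 6 members for primase and the polymerases held both the largest rise in VE minus N and the only member called lower there. Prim1, the catalytic subunit of primase, read 6.77 and 6.91 in the N-labelled, 8.33 and 8.31 in the VE-labelled and 7.75 and 7.56 in the VE+N-labelled line. It was 2.79-fold higher in VE-labelled than in N-labelled cells, a difference of 1.48 ± 0.110 (adjusted p = 8.48e-05), and unlike most members it was also higher in the VE+N-labelled line, by 0.81 ± 0.110 (adjusted p = 0.0014). Pole2, the second subunit of the leading-strand polymerase, read 5.68 and 5.63, 6.74 and 6.68, and 6.45 and 6.54. It was higher than the N-labelled line in both others, by 1.06 ± 0.0983 (adjusted p = 0.000259) and 0.84 ± 0.0983 (adjusted p = 0.000658), and its VE+N minus VE difference of −0.22 did not pass (95% interval −0.45 to 0.01). Pole, the catalytic subunit of the same enzyme, read 6.13 and 6.19, 7.13 and 6.96, and 5.98 and 5.88. Here the VE+N-labelled arrays lay just below the N-labelled ones (difference −0.23, 95% interval −0.48 to 0.02), an interval that does not meet that of Pole2 (0.61 to 1.07).

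The subunits of polymerase alpha, which with primase starts each new strand, moved in opposite directions. Pola2, the regulatory B subunit (probe set 10465282), read 8.02 and 8.13 in the N-labelled, 7.63 and 7.34 in the VE-labelled and 7.30 and 7.35 in the VE+N-labelled line. Both other lines lay below the N-labelled line, by −0.59 ± 0.122 (adjusted p = 0.014) and −0.75 ± 0.122 (adjusted p = 0.00367), which made Pola2 the 1 member called lower in the VE-labelled line. The first of these calls was lost without N-labelled replicate 2 or without VE-labelled replicate 2. Pola1, the catalytic subunit, read 6.02 and 6.17, 6.80 and 6.98, and 5.70 and 5.99, rising by 0.79 ± 0.132 in the VE-labelled line (adjusted p = 0.00502). Pold1, the catalytic subunit of the lagging-strand polymerase, rose by 0.65 ± 0.127 (adjusted p = 0.0108). Of its partner subunits Pold3 and Pold4, and the small Pole subunit Pole4, none of them members and all named after their values were seen, each was lower in the VE-labelled line, by −0.60, −0.86 and −0.51 (adjusted p = 0.00915, 0.00258 and 0.0345). Of the other accessory subunits, Pold2 was higher there, by 0.50 ± 0.104 (adjusted p = 0.0143), and Pole3 differed by 0.03 ± 0.104 (adjusted p = 0.913).

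**Figure D3:**
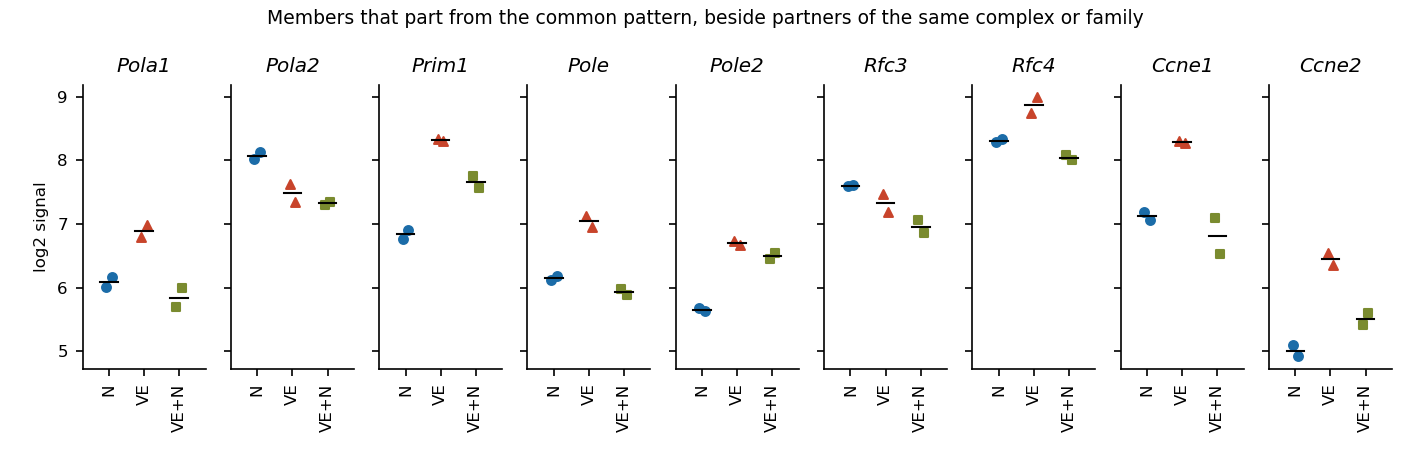
Log2 signal of 9 members on each array (points, by line as labelled on the horizontal axis) with the mean of the 2 arrays (bars); levels are to be compared within a panel, not between genes. Pola2 and Rfc3 are highest in the N-labelled line, Prim1, Pole2 and Ccne2 are lowest there, and Pola1, Pole, Rfc4 and Ccne1 are highest in the VE-labelled line.

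Of the 7 members of the clamp, its loader and the lagging strand, 4 rose in the VE-labelled over the N-labelled line, against 8.46% of all genes. Lig1, the ligase that joins Okazaki fragments, read 7.50 and 7.38 in the N-labelled, 8.37 and 8.33 in the VE-labelled and 7.21 and 6.84 in the VE+N-labelled line. No lines overlapped; Lig1 was 2.5-fold lower in the VE+N-labelled than in the VE-labelled line (−1.32 ± 0.135, adjusted p = 0.000729) and 0.91 higher in VE-labelled than in N-labelled cells (adjusted p = 0.00285). Fen1, the nuclease that trims the fragments, read 6.70 and 6.79, 7.24 and 7.12, and 6.52 and 6.15 with no overlap, but only its VE+N minus VE difference passed (−0.84, adjusted p = 0.00659). The VE minus N difference of 0.44 missed the threshold (adjusted p = 0.0734).

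The sliding clamp Pcna rose by 0.54 ± 0.115 in the VE-labelled over the N-labelled line (adjusted p = 0.0169) and was lower by −0.70 in the VE+N-labelled than in the VE-labelled line (adjusted p = 0.00691). Its 2 probe sets differed by at most 0.0024 on any array, so they do not give separate readings. Rpa2, which coats single-stranded DNA, rose by 0.44 ± 0.0991 (adjusted p = 0.0215). The subunits of the clamp loader parted: Rfc4 rose by 0.56 ± 0.114 (adjusted p = 0.013). Rfc3 read 7.60 and 7.61 in the N-labelled, 7.48 and 7.19 in the VE-labelled and 7.06 and 6.86 in the VE+N-labelled line. Its arrays thus lay in the order VE+N, VE, N with no overlap, with a VE minus N difference of −0.27 that did not pass (95% interval −0.57 to 0.03, below that of Rfc4 at 0.30 to 0.82) and a fall of 0.65 in the VE+N-labelled line from the N-labelled line (adjusted p = 0.00985). Rfc5 read 7.91 and 7.62, 8.16 and 8.21, and 8.11 and 7.50, with the widest gap between VE+N-labelled arrays in this group, and passed in no comparison.

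All 4 members of nucleotide supply rose in the VE-labelled line and were lower in the VE+N-labelled than in the VE-labelled line. The shares of all genes were 8.46% and 5.84%. Rrm2, the S-phase subunit of ribonucleotide reductase, read 7.29 and 7.36 in the N-labelled, 7.92 and 8.13 in the VE-labelled and 7.01 and 6.86 in the VE+N-labelled line. Tyms, which makes thymidylate, read 7.91 and 7.79, 8.43 and 8.24, and 7.36 and 7.46. In both genes the 3 lines were set apart in the order VE+N, N, VE, and each step passed: relative to the N-labelled line, Rrm2 by 0.69 ± 0.115 and −0.39 ± 0.115 (adjusted p = 0.00487 and 0.0484) and Tyms by 0.48 ± 0.112 and −0.44 ± 0.112 (adjusted p = 0.0231 and 0.0268). The large reductase subunit Rrm1 read 9.57 and 9.57, 10.07 and 10.21, and 9.35 and 9.33, in the same order, although the step of −0.23 from the N- to the VE+N-labelled line did not pass (adjusted p = 0.166). The thymidine kinase Tk1 rose by 0.76 ± 0.119 in the VE-labelled line (adjusted p = 0.0037). A further Tk1 probe set gave a VE minus N difference of 0.58 beside 0.76 for the one used, −0.09 beside −0.15 when VE+N was compared with N, and −0.67 beside −0.91 for VE+N minus VE.

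Of the 4 regulators of the G1 to S step, both cyclins E rose in the VE-labelled line, and the E2F activators passed in 1 comparison between them. Ccne1, a cyclin that activates Cdk2, read 7.19 and 7.07 in the N-labelled, 8.31 and 8.27 in the VE-labelled and 7.10 and 6.53 in the VE+N-labelled line. Its fall of 1.48 ± 0.172 from the VE-labelled to the VE+N-labelled line was the largest among the members in that comparison (2.78-fold, adjusted p = 0.00139), and it was 1.16 higher in VE-labelled than in N-labelled cells (adjusted p = 0.00288). Its relative Ccne2 read 5.10 and 4.93, 6.54 and 6.36, and 5.42 and 5.60. Like Prim1 and Pole2 it was above the N-labelled line in both others, by 1.43 ± 0.120 (adjusted p = 0.000153) and 0.49 ± 0.120 (adjusted p = 0.0237). For VE+N minus N, the interval of Ccne2 (0.22 to 0.77) does not meet that of Ccne1 (−0.71 to 0.08). E2f1 read 7.21 and 7.04, 7.60 and 7.24, and 6.88 and 6.90, and E2f2 5.82 and 5.60, 5.94 and 6.00, and 5.80 and 5.42. Of their comparisons only VE+N minus VE in E2f1 passed, at −0.53 ± 0.137 (adjusted p = 0.0491), and the VE minus N differences were 0.30 (95% interval −0.02 to 0.61) and 0.26 (−0.07 to 0.59).

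All 5 members that package, mark or repair new DNA rose in the VE-labelled line and were lower in the VE+N-labelled than in the VE-labelled line. Of all genes 8.46% and 5.84% were so called. Chaf1b, a subunit of the chromatin assembly factor that places histones behind the fork, read 7.23 and 7.04 in the N-labelled, 7.69 and 7.84 in the VE-labelled and 6.45 and 6.52 in the VE+N-labelled line. The lines were apart at every step, by 0.63 ± 0.112 for VE minus N (adjusted p = 0.00675), −0.65 for VE+N minus N (adjusted p = 0.00516) and −1.28 for VE+N minus VE (adjusted p = 0.000344). Its partner Chaf1a rose by 0.62 in the VE-labelled line (adjusted p = 0.0122), and its VE+N minus N difference of −0.32 did not pass (adjusted p = 0.121). Uhrf1, which brings the maintenance methyltransferase to new DNA, read 7.15 and 7.23, 7.87 and 8.13, and 7.15 and 6.42. The gap of 0.74 between its VE+N-labelled arrays was the widest of any member in that line, and the rise of 0.81 ± 0.219 in the VE-labelled line passed narrowly (adjusted p = 0.0437). The methyltransferase itself, Dnmt1, read 8.03 and 7.98, 8.6 and 8.66, and 7.91 and 7.97, with narrow pairs and a rise of 0.62 ± 0.0964 (adjusted p = 0.00354). The repair gene Brca1 rose by 1.03 ± 0.111 (adjusted p = 0.000537) and its VE+N minus N difference was −0.02 (95% interval −0.27 to 0.24).

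**Figure D4:**
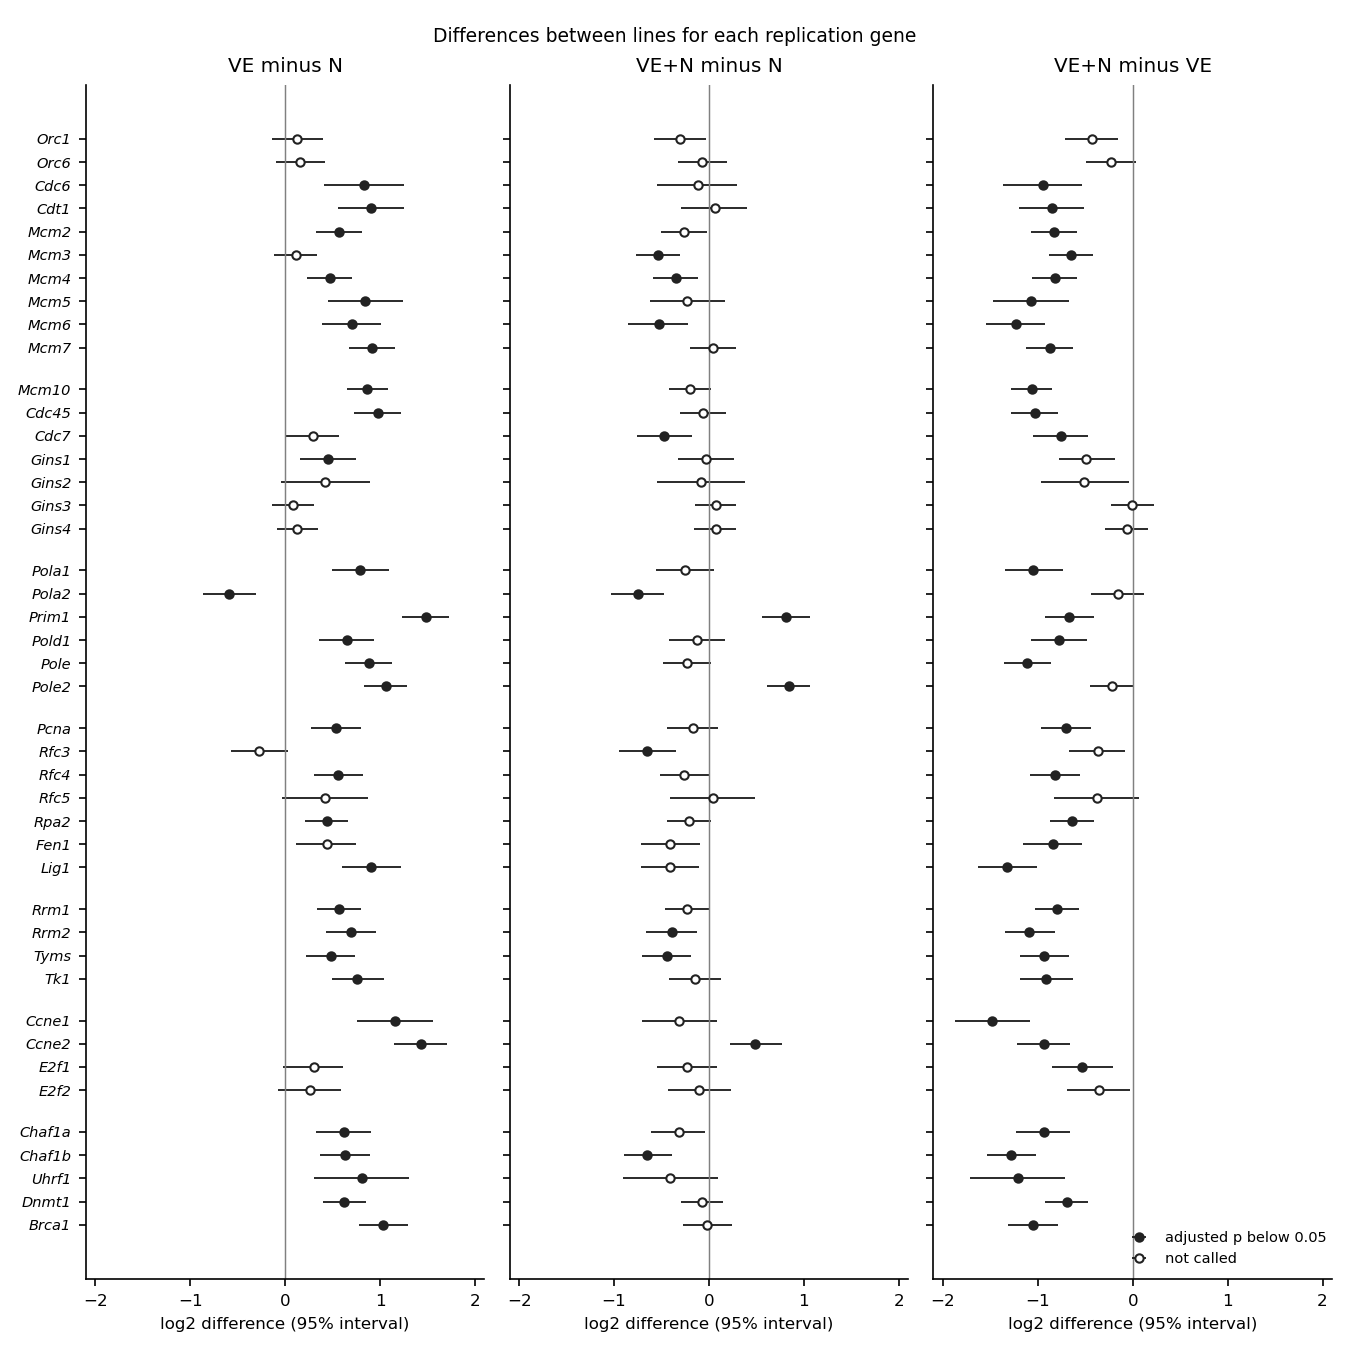
Log2 difference between lines (points) with its 95% interval from limma (bars, not adjusted for the number of genes) for each member in the 3 comparisons; filled points passed adjusted p below 0.05. Most points lie right of 0 for VE minus N, close to or left of 0 for VE+N minus N and left of 0 for VE+N minus VE, with Pola2, Rfc3, Prim1, Pole2 and Ccne2 apart.

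In 21 members the arrays lay in the order VE+N, N, VE with no overlap, against 2.90% of all genes, and in 4 (Gins4, Prim1, Pole2 and Ccne2) in the order N, VE+N, VE, against 2.44%. In the remaining members the lines overlapped or lay in another order. Both VE+N-labelled arrays lay below both N-labelled arrays in 24 members, against 27.5% of all genes, and above them in 5, against 27.6%. The 9 members called lower in the VE+N-labelled than in the N-labelled line were Mcm3, Mcm4, Mcm6, Cdc7, Pola2, Rfc3, Rrm2, Tyms and Chaf1b, and the 3 called higher were Prim1, Pole2 and Ccne2. The count of 9 is not firm: it was 4 without VE+N-labelled replicate 2, where the member median moved from −0.227 to −0.114, 2 and 3 without N-labelled replicate 1 or 2, and 5 without either VE-labelled array. Over all genes the share called lower was 7.37% without VE+N-labelled replicate 2, 5.24% and 5.2% without N-labelled replicate 1 or 2, and 7.62% without either VE-labelled array. Without any 1 of these arrays, the share of members called lower was thus nearer to that of all genes than in the full fit. Leaving out VE+N-labelled replicate 1 instead gave a member median of −0.286. Beyond a 2-fold change, 5 members were called higher in VE minus N (2.58% of all genes), and no member fell by as much (1.23% of all genes). No member differed by over 2-fold in VE+N minus N, where the shares of all genes were 2.45% higher and 2.16% lower. In VE+N minus VE 12 were lower (1.97%), and no member lay above 0 (0.547% of all genes were higher by over 2-fold).

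Other genes of replication were taken from a list set beside the members. Of 45 measured genes of forks and origins, 17 were higher and 4 lower in VE-labelled than in N-labelled cells, with a median of 0.231, against 8.46% and 6.99% of all genes. In VE+N minus N 4 were higher and 9 lower, against 10.2% and 8.91%, with a median of −0.097. Finally, 18 were lower and 1 higher in the VE+N-labelled than in the VE-labelled line, against 5.84% and 4.29%, with a median of −0.292. The 4 lower in the first comparison (8.89% of the list) and the 1 higher in the last (2.22%) are near or below the shares of all genes. The histone chaperone Asf1b read 7.48 and 7.61 in the N-labelled, 9.04 and 8.82 in the VE-labelled and 7.46 and 6.77 in the VE+N-labelled line, a VE+N minus VE difference of −1.82 ± 0.209 (adjusted p = 0.0013). The S-phase cyclin gene Ccna2, the Pcna partner Pclaf and the checkpoint mediator Clspn had VE+N minus VE differences of −1.40, −1.38 and −1.13 (adjusted p = 0.000655, 0.000733 and 0.00052). The 4 genes lower in VE-labelled than in N-labelled cells were Pold3, Pold4, Pole4 and Orc5, and the 1 higher in the VE+N-labelled than in the VE-labelled line was Mcm9 (0.59, adjusted p = 0.0388), all named after their values were seen.

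Among 12 E2F and pocket protein genes, 5 were higher and 0 lower in VE-labelled than in N-labelled cells (median 0.341), against 8.46% and 6.99% of all genes. In VE+N minus N 3 were higher and 0 lower (median 0.167), against 10.2% and 8.91%. In VE+N minus VE 0 were higher and 4 lower (median −0.107), against 4.29% and 5.84%. The repressor E2f8 read 5.96 and 5.72, 7.12 and 7.07, and 5.92 and 5.74 in the N-, VE- and VE+N-labelled lines, and its relative E2f7 read 5.96 and 5.98, 7.27 and 7.25, and 6.62 and 6.43. Both are themselves E2F targets, and both were highest in the VE-labelled line, E2f8 by 1.25 ± 0.120 (adjusted p = 0.000294) and E2f7 by 1.29 ± 0.106 (adjusted p = 0.000136) over the N-labelled line. The pocket protein gene Rbl1 rose by 0.65 ± 0.0957 (adjusted p = 0.00284), and the E2F partner Tfdp2 by 0.60 ± 0.108 (adjusted p = 0.00716). Of 17 genes of replication stress and repair, 13 were higher in VE-labelled than in N-labelled cells (median 0.531), against 8.46% of all genes. In the VE+N-labelled line 12 were lower than in the VE-labelled line (median −0.701), against 5.84%. In VE+N minus N 1 was higher and 1 lower (median −0.084). That is 5.88% each, below the 10.2% and 8.91% of all genes. The helicase gene Brip1 rose by 1.21 ± 0.124, and the checkpoint kinase Chek1, the recombination gene Rad54l and Mms22l by 0.63, 1.00 and 1.04 (adjusted p = 0.032, 0.000558 and 0.000616).

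All 25 measured mitosis genes were higher in VE-labelled than in N-labelled cells (median 1.009), against 8.46% of all genes. All 25 were lower in the VE+N-labelled than in the VE-labelled line (median −1.106), against 5.84%. Between the VE+N-labelled and N-labelled lines 2 were higher and 1 lower, with a median of −0.062. These 8.0% and 4.0% of the list are below the 10.2% and 8.91% of all genes. The replication genes had 3 higher, 9 lower and a median of −0.227 there. The topoisomerase gene Top2a read 7.86 and 7.89 in the N-labelled, 9.27 and 9.33 in the VE-labelled and 7.95 and 7.90 in the VE+N-labelled line. Mki67, the common marker of cycling cells, read 7.94 and 7.75, 9.38 and 9.67, and 8.0 and 7.97, and the motor gene Kif11 and the spindle gene Prc1 had VE+N minus VE differences of −1.25 and −1.13 (adjusted p = 0.000413 and 0.00134). The VE+N minus N differences of 0.05 for Top2a and 0.14 for Mki67 did not pass (adjusted p = 0.792 and 0.543).

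**Figure D5:**
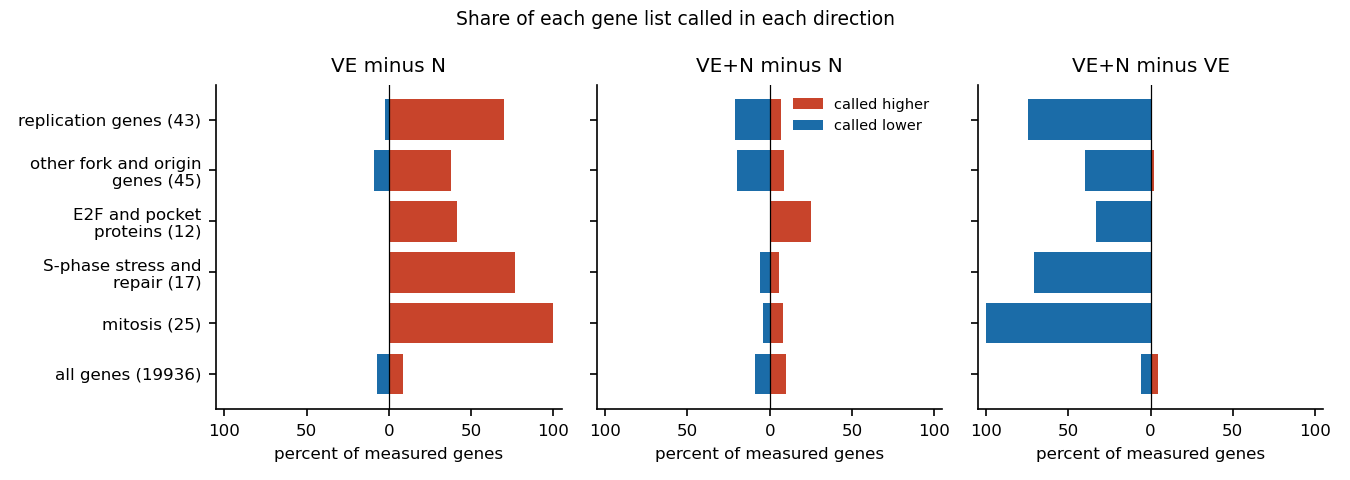
Percent of the measured genes of each list called higher (red, to the right) or lower (blue, to the left) at adjusted p below 0.05 in each comparison, with all 19936 genes at the bottom. Of the 43 replication genes 30 were higher in VE minus N and 32 lower in VE+N minus VE, and of the 25 mitosis genes all were; in VE+N minus N 3 of the 43 replication genes were higher and 9 lower.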

How the data were processed

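Values of 6 Affymetrix Mouse Gene 1.0 ST arrays, 2 for each line, were used as deposited. Per the submitters' processing notes, the authors used RMA within Partek 6.3; it subtracts background, equalizes the arrays by quantiles and summarizes probes, which can compress differences at low signal. The deposited values span a range that fits a log2 scale. Per the labels' protocols, 150 ng of RNA was amplified per array. Scanner files were not used here.

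Of 35556 probe sets 21789 had 1 symbol, brought up to date through Entrez identifiers or accessions. Line means were fitted to all 6 arrays with limma 3.58.1 in R 4.3.3 (3 residual and 4.89 prior degrees of freedom), and p-values were adjusted by Benjamini-Hochberg over 19936 genes in each comparison. Intervals are 95% intervals of the moderated test, not adjusted for the number of genes. No test between genes was run, so intervals of different genes are set side by side as description only. Values after ± are SE. No filter on signal was applied. On data simulated for VE minus N, 200 of 19936 genes were changed. Of those changed by 1 log2 unit 99.5% were recovered, and of those changed by 0.5 34.2% to 37.2%, with 6.16% false calls. In the real comparison 15.4% of all genes were called. The adjustment depends on that share, so these rates need not hold for the real data.

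The members and all lists were chosen with earlier results of these data known. Every member was named; values are given by array for the members with the 2 largest and the smallest largest difference in each role and for members not called higher in VE minus N, and also for Pola1 and Pole2, chosen after their values were seen. Of each other list, the 4 called genes with the largest difference were named. A few genes of the other lists were not analysed here. Promoter letters and their coordinates came from RefSeq and not from the deposited values.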

Additional observations from a re-analysis of the deposited data

How the results depend on the processing

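The counts and medians of the replication genes were recomputed under 15 alternatives, each array left out included, and no called member changed direction in any of them. With each array left out in turn, the members called higher in VE minus N numbered 14 to 30 and those called lower 0 to 1. In VE+N minus N, 2 to 3 were then called higher and 2 to 11 lower, with a median of −0.286 to −0.114, and in VE+N minus VE 22 to 33 were called lower. In each fit with an array left out, the share of members called higher in VE minus N was above that of all genes. So was the share called lower in VE+N minus VE. In VE+N minus N the share of members called higher was below that of all genes in each such fit. The share called lower there was above it, except without N-labelled replicate 1. The methods' analysis of variance with Benjamini-Hochberg called 10 higher and 0 lower in VE minus N (3.42% and 2.98% of all genes). In VE+N minus N it called 2 higher and 2 lower (4.82% and 4.55%, so that these members are at the share of all genes). In VE+N minus VE it called 3 lower (0.968%). At its unadjusted p and a fold over 2 the same analysis called 5 and 0, 0 and 0, and 12 lower. The shares of all genes were then 2.54% and 1.22%, 2.42% and 2.14%, and 1.94% lower. In limma the unadjusted counts were 31 higher and 1 lower, 3 and 14, and 0 and 37, and the shares of all genes at this unadjusted p are not given here. A fit on only the 4 arrays compared called 5 members lower in VE+N minus N, against 7.62% of all genes. Some of these fits also used fewer arrays, and the cause of the losses was not tested.

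Median centring lowered VE minus N over all genes, from a median of −0.021 to −0.13, with 6.44% of genes then called higher and 12% lower; the member median became 0.512 and 26 members were called higher, the calls of Gins1, Rpa2, Tyms and Uhrf1 being lost. In VE+N minus VE it gave a member median of −0.737, and the call of E2f1 was lost. The main fit did not pair arrays by replicate number. Deviations of arrays with the same number correlated at −0.00504, 0.123 and 0.0689 between lines. With 2 arrays a line, these values cannot show whether such arrays shared a batch. With a replicate block 29 members were called higher in VE minus N, 8 lower in VE+N minus N and 34 lower in VE+N minus VE. The shares of all genes were then 8.44%, 9.02% and 5.93%. Filters on dim genes, a trended prior, repeated quantile normalization and the mean of probe sets kept each count within 1.5 times. Of the called members 4 of 31, 0 of 12 and 1 of 32 passed under every alternative that kept all arrays of the lines compared. Among these alternatives is the analysis of variance with a fold over 2, which any member under 2-fold fails by its rule. Only 5 members in VE minus N, 0 in VE+N minus N and 12 in VE+N minus VE were called beyond 2-fold in the main fit. The 0 of 12 was thus fixed in advance, and the other 2 counts could not exceed 5 and 12.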
